A study of Mus musculus with 12 samples.

Results

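Labelled muscle progenitors of the mouse head and trunk were compared between embryonic day 9.5 (E9.5) and embryonic day 11.5 (E11.5), to find the transcripts that moved the same way in both regions. The comparison used 8 of the 12 arrays of the study, chosen by stage and region as labelled: 2 arrays of head and 2 of trunk at E9.5, and 2 of head and 2 of trunk at E11.5. All groups shared the strain, ICR, and the genotype, Myf5Cre;RosaYFP, in which cells that have used the promoter of the muscle determination gene Myf5, and all their descendants, carry a yellow fluorescent protein. Head or trunk tissue was dispersed, fluorescent cells were collected by flow cytometry, and amplified RNA was hybridised to a mouse expression array. The sort selects on lineage and does not require that a cell still transcribes Myf5. Whether both arrays of a group stand for separate embryos, litters or pools is not stated in the labels, and the p-values cover no more than the spread between arrays, which may be technical.

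Skeletal muscle of the trunk comes from the somites, and that of the head largely from unsegmented cranial and pharyngeal mesoderm. The upstream regulators of the progenitors differ between these sources, but both use the same family of myogenic basic helix-loop-helix factors: Myf5 and Myod1 commit cells to the lineage, and Myog starts differentiation. Differentiating myoblasts leave the cell cycle, fuse, and assemble sarcomeres, the contractile units made of myosin and actin filaments anchored at Z-discs.

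The median signal of a probe set lay between 108.6 and 110.4 intensity units on the 12 arrays, and this median was used as a conservative limit below which a level was not taken as measured. Pearson r across probe sets between both arrays of a group was 0.957 to 0.981; probe sets are not replicates, so this only describes the arrays. As a sign of RNA quality, the log2 gap from the 5′ to the 3′ probe set of Actb had a mean of 5.41 ± 0.48 at E9.5 and 5.50 ± 0.26 at E11.5 (SD, n = 4 arrays). On each of the 8 arrays the gap was at least 4.86 for Actb and 5.30 for Gapdh, a strong 3′ bias at both stages. The test of these measures compares the stages and does not show that the RNA was intact. With an exact two-sided permutation test, which could not go below 0.0286 here, p was 0.743 for Actb, 1 for the same gap of Gapdh and 0.429 for the spike-in signal, and 1 for each after adjustment over the 3 measures. The log2 signal of Xist, which is made from the inactive X chromosome, was 11.89 to 13.10 on all 8 arrays of the comparison. At E10.5, the intermediate stage, it was 7.35 on head replicate 1 and 6.37 on trunk replicate 1, and the tests within a region, the tests of a difference between the regions and the timing values, which use E10.5, are given also without these 2 arrays. The arrays measured bulk samples, in which fewer cells of a type and less RNA per cell cannot be told apart.

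Between E9.5 and E11.5 both regions gained transcripts of the differentiation programme of skeletal muscle, from the factors Myod1 and Myog to sarcomere and acetylcholine receptor genes, and single matrix genes such as Ogn. Both lost genes of the early embryo, led by Lin28a and Sall4, together with epithelial genes such as Krt8 and Krt18. Single genes of matrix and metabolism, such as Hapln1, Has2, Slc2a3 and Ldha, fell as well. In the fit over both regions (limma on log2 signal with region as a term, Benjamini-Hochberg adjusted p under 0.05), 806 of 7722 genes tested were called, which is 10.4%. Of these, 519 (6.72%) were higher and 287 (3.72%) lower at E11.5. A called gene is described below as having risen or fallen in both regions only if both E11.5 arrays lay beyond both E9.5 arrays in head and again in trunk. This held for 506 genes that rose (6.55% of those tested) and 281 that fell (3.64%), while 19 called genes overlapped between the stages in 1 region. All 806 had the same sign in both regions, which the fit partly imposes, since it counts a gap between the regions as error. Called or not, 973 genes (12.6%) were higher and 819 (10.6%) lower without overlap in both regions.

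The median log2 change was 1.19 among the 506 genes that rose and −0.91 among the 281 that fell, against −0.01 over all genes tested. In each region separately, 210 of the genes that rose and 87 of those that fell moved by over 1 on the log2 scale, and 63 and 16 by over 2. Tested within a region (limma, 1 mean per group, all 12 arrays), 369 genes (4.78%) were called in head and 1038 (13.4%) in trunk, and 232 of the 787 genes were called in both regions taken alone, 161 rising and 71 falling. Without the E10.5 arrays of low Xist signal these numbers were 279 (3.61%) in head, 862 (11.2%) in trunk and 165 in both, 114 rising and 51 falling. Of the 787 genes, 258 were measured by several probe sets, and for 32 of these another probe set had the opposite sign. The count of called genes depended on single trunk arrays: it was 472 without trunk E11.5 replicate 2, 519 without trunk E11.5 replicate 1 and 509 without trunk E9.5 replicate 1. Without these arrays the genes that rose in both regions numbered 298, 320 and 334. Those that fell numbered 174, 199 and 175, and 182 without trunk E9.5 replicate 2.

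**Figure D1:**
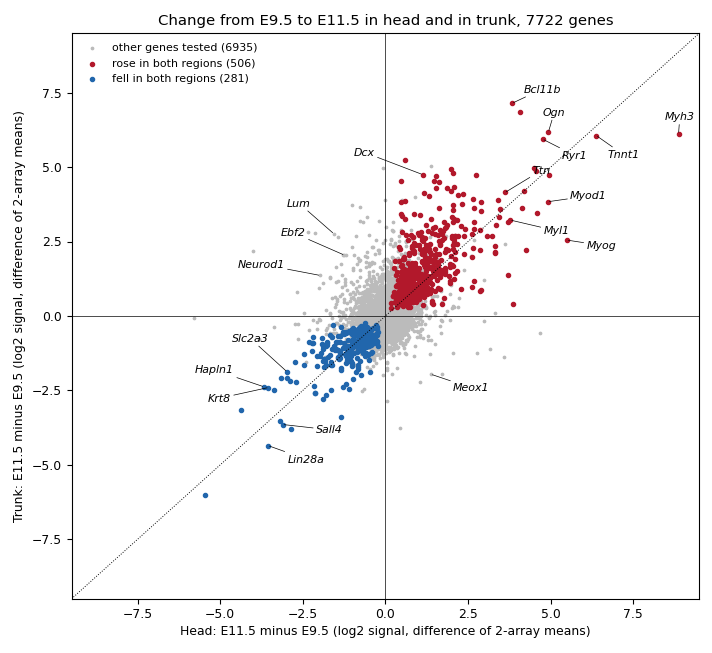
Log2 change between the stages in head (horizontal axis) and in trunk (vertical axis), each the difference of 2-array means of log2 signal, for the 7722 genes tested. Red points are the 506 genes that rose and blue points the 281 that fell in both regions, and the dotted line marks equal change; Myh3, Tnnt1 and Ogn lie at the upper right and Lin28a and Sall4 at the lower left.

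**Figure D2:**
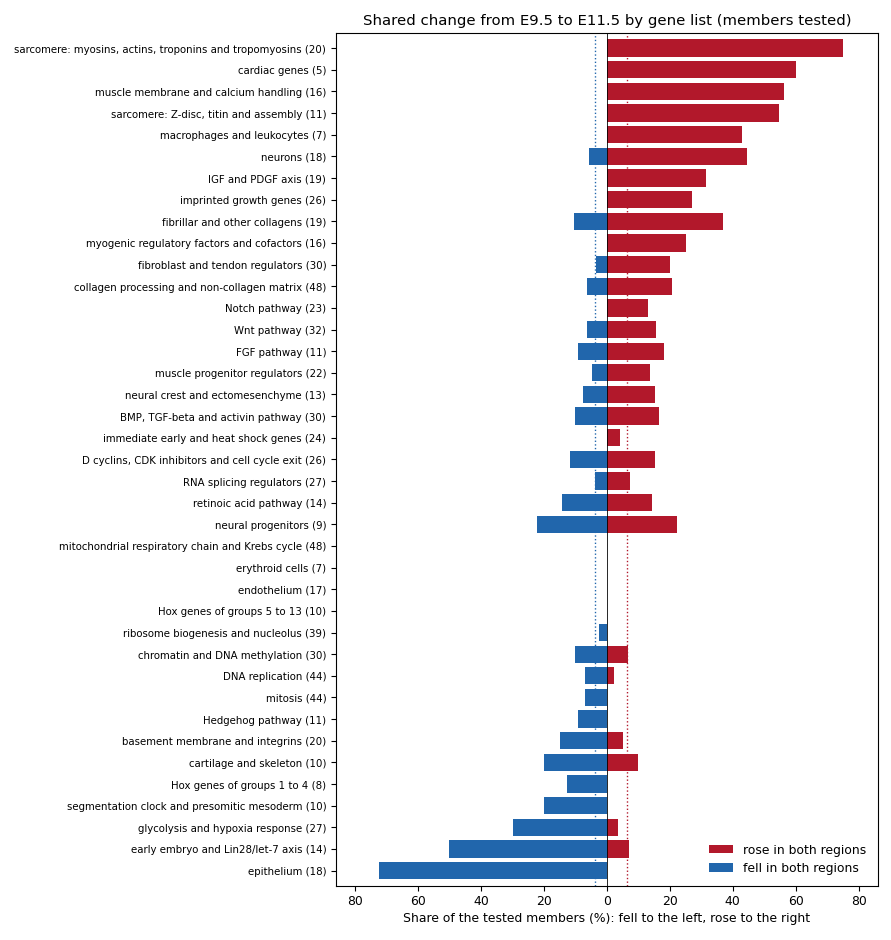
Share of the tested members of each gene list that rose (red, to the right) or fell (blue, to the left) in both regions, in percent, with the number of tested members in brackets. The lists of muscle lineage markers and of sex-linked genes are not drawn. Dotted lines mark the same shares over all 7722 genes, 6.55% rising and 3.64% falling; sarcomere genes reach furthest to the right and epithelial genes furthest to the left.

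Gene lists describe these changes by counts of tested members. Testing required signals above the array median on at least 2 of 12 arrays, so a gene dim at E9.5 could enter through its later arrays, and the counts describe the members that were measured. The lists are set beside the shares over all genes, 6.55% rising and 3.64% falling, and a count near these shares is no result about a list. Throughout, a log2 change is the fitted difference E11.5 minus E9.5 with its standard error from limma (n = 4 arrays a side), and an adjusted p is limma's after Benjamini-Hochberg adjustment over all genes tested. A fold is written as at least N-fold where arrays of the dimmer side lay below the array median and were raised to it. Log2 values use the signals without this limit, so their order among dim genes is not an order of measured folds.

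Of 16 tested myogenic factors and cofactors (25 listed), 4 rose in both regions and none fell, with a list median of log2 0.27. The signal of Myod1, the determination factor, was 56.9 and 96.5 in head and 70.1 and 73.5 in trunk at E9.5, against 2156 and 2337 in head and 1198 and 879 in trunk at E11.5. All 4 E9.5 arrays lay below the array median and all 4 E11.5 arrays far above it, so Myod1 rose by at least 13.8-fold (log2 4.38 ± 0.26, adjusted p = 3.99e-05). Myog, the factor that starts terminal differentiation, was at 40.4 and 25.3 in head and 112 and 243 in trunk at E9.5, against 1581 and 1318 in head and 825 and 1127 in trunk at E11.5. It rose by at least 8.76-fold (log2 4.02 ± 0.53, adjusted p = 0.00174), with a change of 5.50 in head and 2.55 in trunk (limma interaction, adjusted p = 0.0133, and 0.0453 without the E10.5 arrays of low Xist signal). Both head arrays of E9.5 lay under the median, and with signals raised to it the changes were 3.71 in head and 2.55 in trunk and their difference was not called (adjusted p = 0.337). At E9.5 Myog was lower on both head arrays than on both trunk arrays, and at E11.5 this order was turned round.

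Mef2c, a MADS-box partner of the myogenic factors, was at 591 and 739.7 in head and 214 and 442 in trunk at E9.5, against 1507 and 1058 in head and 1693 and 1485 in trunk at E11.5. Mef2c rose 3.14-fold (log2 1.65 ± 0.32, adjusted p = 0.0102). Tcf4, an E-protein that pairs with them, rose by a small step, 1.29-fold (log2 0.37 ± 0.10, adjusted p = 0.0431), and lost its call in 8 of 8 array omissions (adjusted p up to 0.135, without trunk E11.5 replicate 2). Myf5 was at 525 and 771 in head and 999 and 1305 in trunk at E9.5, against 1787 and 1772 in head and 1078 and 1261 in trunk at E11.5, above the array median on all 8 arrays. It did not pass the test over both regions (log2 0.76 ± 0.28, adjusted p = 0.121), with 1.48 in head, where the arrays did not overlap, and 0.03 in trunk, where they did (limma interaction, adjusted p = 0.0307, and 0.0964 without the E10.5 arrays of low Xist signal). Myf5, whose promoter sets the label, was thus above the median at both stages, and Myod1 at E11.5 alone in this comparison. The summed signal of the 11 tested muscle lineage markers (15 listed) was 2535 to 2774 in head and 3294 to 5362 in trunk at E9.5, against 16272 to 18456 in head and 13614 to 15469.5 in trunk at E11.5. These markers include the sarcomere genes Actc1, Myl1 and Ttn described below, so the sum does not follow progenitor markers alone.

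Upstream of these factors stand the regulators that define progenitors before differentiation. Of 22 tested (24 listed), 3 rose and 1 fell in both regions and 18 were not called, with a list median of log2 0.41. For 8 of the 22 the head and trunk changes differed (limma interaction over all 12 arrays, 1.48% of all genes), and for 6 without the E10.5 arrays of low Xist signal (0.816% of all genes). Msc, a basic helix-loop-helix repressor of branchial arch muscle, was at 698 and 1103 in head and 45.04 and 71.5 in trunk at E9.5, against 3557 and 3662 in head and 914 and 619 in trunk at E11.5. Msc rose by at least 5.32-fold (log2 2.88 ± 0.34, adjusted p = 0.00106). It was lower in trunk than in head on all arrays of either stage, and rose from both levels. Pax7, the paired-box factor of muscle stem cells, was at 62.5 and 29.4 in head and 35.7 and 120.0 in trunk at E9.5, against 126 and 266 in head and 175 and 179 in trunk at E11.5. Pax7 rose by at least 1.604-fold (log2 1.76 ± 0.44, adjusted p = 0.0302), with the highest E9.5 array just under the lowest E11.5 array. Ebf3, an early B-cell factor, rose 1.86-fold (log2 0.89 ± 0.20, adjusted p = 0.0182), and Foxc2, a forkhead factor of paraxial mesoderm, fell 1.93-fold (log2 −0.95 ± 0.27, adjusted p = 0.0497). Pax3, the paired-box factor of somitic progenitors, was not called (log2 −0.17 ± 0.34, adjusted p = 0.793), with 0.60 in head and −0.94 in trunk, and neither was Tbx1, the T-box factor of the pharynx (log2 0.41 ± 0.31, adjusted p = 0.443), with −0.43 in head and 1.26 in trunk. Single array omissions ended the calls of Pax7 (5 of 8 omissions, up to 0.0866 without trunk E9.5 replicate 1), Ebf3 (without any of the 4 trunk arrays, up to 0.0608) and Foxc2 (7 of 8 omissions, up to 0.13 without trunk E9.5 replicate 2). Neither Pax7 nor Foxc2 was called with signals raised to the median (adjusted p = 0.0848 and 0.0818).

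Of the lists, that of the contractile genes held the highest share of rising members. Of 20 tested myosins, actins, troponins and tropomyosins (28 listed), 15 rose in both regions and none fell, with a list median of log2 2.34. Myh3, the embryonic myosin heavy chain, was at 5.29 and 3.46 in head and 7.47 and 288 in trunk at E9.5, against 2381 and 1678 in head and 4519 and 2317 in trunk at E11.5. Of the E9.5 arrays 3 lay far below the array median and trunk replicate 2 above it, and all E11.5 arrays were higher, a rise of at least 18.2-fold (log2 7.50 ± 0.97, adjusted p = 0.00158). Tnnt1, the slow skeletal troponin T, was at 6.17 and 49.04 in head and 12.2 and 26.6 in trunk at E9.5, against 1927 and 1093 in head and 1242 and 1158 in trunk at E11.5. Tnnt1 rose by at least 12.03-fold (log2 6.22 ± 0.55, adjusted p = 0.000365). Actc1, the cardiac actin that embryonic skeletal muscle also uses, was measured on every array, at 1176 and 1321 in head and 629 and 1953 in trunk at E9.5, against 7883 and 7491 in head and 8272 and 6686 in trunk at E11.5. It rose 6.43-fold (log2 2.68 ± 0.28, adjusted p = 0.000655), by 2.62 in head and 2.75 in trunk. Among the light chains, Myl1 rose by at least 1.99-fold (log2 3.50 ± 0.47, adjusted p = 0.0019) and Mylpf by at least 2.77-fold (log2 2.87 ± 0.37, adjusted p = 0.00163). Myh1, an adult fast myosin, rose by at least 1.59-fold (log2 3.21 ± 0.34, adjusted p = 0.00066) from signals that were all under the median at E9.5. With signals raised to the median before the test, the call of Myl1 was lost (adjusted p = 0.0568). With probe sets that may match several transcripts left out, which removes whole genes, 7 members of the list rose in place of 15.

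At the Z-disc and along the filaments, 6 of 11 tested genes (32 listed) rose and none fell, with a list median of log2 1.80. Titin, the spring that spans the sarcomere, encoded by Ttn, was at 216 and 180.4 in head and 65.7 and 223 in trunk at E9.5, against 3563 and 1646 in head and 2256 and 2034 in trunk at E11.5. It rose by at least 13.01-fold (log2 3.88 ± 0.36, adjusted p = 0.000403), and all E11.5 arrays stood above all E9.5 arrays. Actn2, the alpha-actinin that crosslinks actin at the Z-disc, was at 89.8 and 27.8 in head and 25.02 and 75.9 in trunk at E9.5, against 699.9 and 400.0 in head and 875 and 485 in trunk at E11.5. Actn2 rose by at least 5.35-fold (log2 3.65 ± 0.45, adjusted p = 0.00126). Cap2, an actin regulator of striated muscle, rose by at least 2.68-fold (log2 1.80 ± 0.28, adjusted p = 0.00377). Myot, Mybph and Actn3 rose as fitted (log2 2.87 ± 0.38, 4.83 ± 0.84 and 1.85 ± 0.40), but on some E11.5 arrays they lay under the median. With signals raised to the median before the test, 3 of the list's members rose, and these genes had adjusted p of 0.13, 0.192 and 0.126. Single omissions also ended the calls of Mybph (without head E11.5 replicate 1 or trunk E11.5 replicate 1, adjusted p up to 0.0544) and Actn3 (without trunk E11.5 replicate 1, adjusted p up to 0.0509).

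Genes of the muscle membrane followed. Of 16 tested (37 listed), 9 rose and none fell, with a list median of log2 1.63. Chrna1, the alpha subunit of the muscle acetylcholine receptor, was at 5.93 and 34.2 in head and 13.9 and 4.07 in trunk at E9.5, against 334 and 311 in head and 311 and 179.6 in trunk at E11.5. No E9.5 array reached the median and all E11.5 arrays did, a rise of at least 2.52-fold (log2 4.74 ± 0.60, adjusted p = 0.00149). The beta subunit Chrnb1 rose by at least 1.77-fold (log2 3.75 ± 0.51, adjusted p = 0.00199) and the fetal gamma subunit Chrng by at least 1.27-fold (log2 2.22 ± 0.35, adjusted p = 0.00375). Ryr1, the calcium release channel of the sarcoplasmic reticulum, was at 6.2 and 14.3 in head and 3.05 and 3.19 in trunk at E9.5, against 257 and 254 in head and 270.0 and 135 in trunk at E11.5. Ryr1 rose by at least 2.01-fold (log2 5.35 ± 0.55, adjusted p = 0.000646). Erbb3, a neuregulin receptor, was well measured at both stages, at 885 and 662 in head and 506 and 592 in trunk at E9.5, against 3171 and 3669 in head and 1633 and 1501 in trunk at E11.5. Erbb3 rose 3.57-fold (log2 1.84 ± 0.17, adjusted p = 0.000403). Casq2, a calcium-binding protein of the reticulum, had a log2 change of 3.42 ± 0.45, with head E11.5 replicate 2 under the median and an adjusted p of 0.0857 with signals raised to it. Musk, the receptor kinase that organises the neuromuscular synapse, named after its value was seen, was at 15.5 and 20.6 in head and 10.5 and 8.53 in trunk at E9.5, against 258 and 125 in head and 20.2 and 87.3 in trunk at E11.5. It had a log2 change of 2.74 ± 0.63 (adjusted p = 0.022), with head E11.5 arrays above the median and trunk arrays below it. Musk was not called with signals raised to the median (adjusted p = 0.381), and single omissions ended its call as well (4 of 8 omissions, up to 0.104 without head E11.5 replicate 1).

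**Figure D3:**
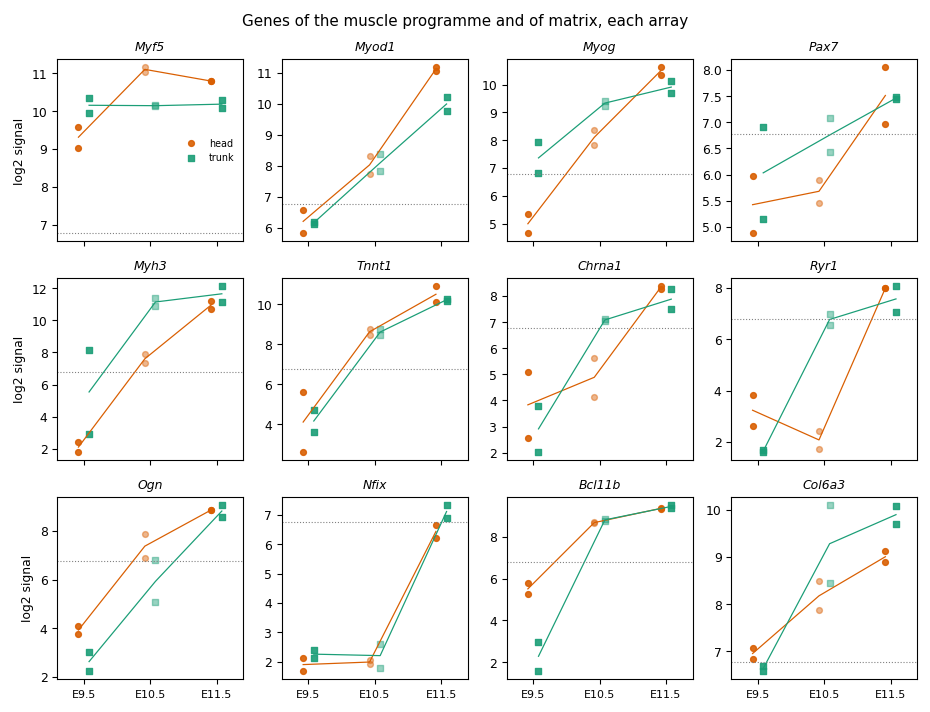
Log2 signal of 12 genes on each array, by stage, for head (orange circles) and trunk (green squares), with lines through the 2-array means; the E10.5 arrays, paler, are outside the test. The dotted line marks the array median: Myod1, Tnnt1, Chrna1, Ryr1, Ogn and Bcl11b start below it in both regions and end above it, whereas Myf5 lies above it throughout and shows no net change in trunk.

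Promoter sequence is shown for genes of this group because they rose together and because the E-box CAGCTG is the preferred site of Myod1 and Myog. Windows from 250 bases before to 50 after the gene start were taken from RefSeq (GRCm38.p6). Of the genes tested, 6290 had a window, 4926 of them exactly 1, to which the shares refer. The motif reads the same on both strands. It was present in 665 of the 4926 windows (13.5%), in 63 of 279 of genes that rose in both regions (22.6%), in 23 of 185 of genes that fell (12.4%), and in 10 of 25 of the rising sarcomere and muscle membrane genes (40%). The 10 are Acta1, Acta2, Atp2a1, Tpm2 and the 6 printed here, which are described in the text. Each stretch lies before the gene start and reads 5′ to 3′ on the strand of the gene, with CAGCTG in capitals.
Chrna1, chr2:73580347-73580460, minus strand: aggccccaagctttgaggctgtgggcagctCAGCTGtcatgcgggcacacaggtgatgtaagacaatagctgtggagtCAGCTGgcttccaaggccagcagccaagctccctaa
Chrng, chr1:87205626-87205714, plus strand: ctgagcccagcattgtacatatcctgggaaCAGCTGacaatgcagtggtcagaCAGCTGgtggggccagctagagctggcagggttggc
Mylpf, chr7:127211527-127211592, plus strand: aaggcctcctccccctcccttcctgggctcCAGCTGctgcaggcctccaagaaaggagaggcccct
Myl1, chr1:66945245-66945306, minus strand: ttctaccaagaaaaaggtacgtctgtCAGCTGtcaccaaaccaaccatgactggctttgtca
Musk, chr4:58285864-58285929, plus strand: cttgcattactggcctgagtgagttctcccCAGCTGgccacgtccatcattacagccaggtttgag
Mybph, chr1:134193339-134193404, plus strand: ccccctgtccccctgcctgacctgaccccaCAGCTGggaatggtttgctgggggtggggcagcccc
Chrna1 carries the motif at −92 and −44 and Chrng at −155 and −132, counted from the start to the first base of the motif, and the other genes carry it singly. The 250 bases before the starts of Myh3, Tnnt1, Ryr1, Ttn and Actn2 do not hold these letters, from which nothing follows about the factors. The letters TTTGAA, read on both strands, occurred in 11.8% of all windows, 6.09% of genes that rose and 18.4% of genes that fell, and CCAAT in 40.1%, 35.5% and 37.8%. The E2F forms TTTGGCGC or TTTCGCGC occurred in 1.91%, 0.358% and 2.7%. These shares are descriptions with no test, and a match is not a site in use.

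Genes of the early embryo were among those that fell. Lin28a, an RNA-binding protein that blocks maturation of let-7 microRNAs, was at 459 and 325 in head and 531 and 436 in trunk at E9.5, against 37.1 and 29.2 in head and 27.6 and 19.98 in trunk at E11.5. All 4 E9.5 arrays lay above the median and all 4 E11.5 arrays below it, and Lin28a fell by at least 3.93-fold (log2 −3.95 ± 0.27, adjusted p = 6.00e-05). Sall4, a zinc finger factor of pluripotent and early mesodermal cells, was measured on every array, at 2845 and 2647 in head and 3359.6 and 2389 in trunk at E9.5, against 359 and 283 in head and 235 and 217 in trunk at E11.5. It fell 10.4-fold (log2 −3.38 ± 0.18, adjusted p = 2.60e-05), by log2 −3.11 in head and −3.65 in trunk. Of 14 tested genes of this list (29 listed), 7 fell and 1 rose, with a list median of log2 −0.52.

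Further members were Arid3b, a chromatin factor and let-7 target, at 285 and 327 in head and 267 and 219 in trunk at E9.5, against 89.7 and 83.3 in head and 76.3 and 91.6 in trunk at E11.5, which fell by at least 2.47-fold (log2 −1.67 ± 0.18, adjusted p = 0.000757), and Igf2bp1, an oncofetal RNA-binding protein, which fell 2.08-fold (log2 −1.05 ± 0.16, adjusted p = 0.00312). Crabp2, a retinoic acid carrier, was at 433 and 609.6 in head and 834 and 851 in trunk at E9.5, against 236 and 115 in head and 367 and 202 in trunk at E11.5. Crabp2 fell 3.11-fold (log2 −1.64 ± 0.26, adjusted p = 0.00416). The 2 de novo DNA methyltransferases moved in opposite directions. Dnmt3b was at 2346 and 1971 in head and 2433 and 2036 in trunk at E9.5, against 1287 and 803 in head and 845 and 1153 in trunk at E11.5. Dnmt3b fell 2.18-fold (log2 −1.13 ± 0.18, adjusted p = 0.00391). Dnmt3a was at 560.3 and 695 in head and 329 and 555 in trunk at E9.5, against 1288 and 1015 in head and 1109.5 and 1048 in trunk at E11.5. Dnmt3a rose 2.15-fold (log2 1.10 ± 0.20, adjusted p = 0.00724), although another probe set of the gene had the opposite sign. For both genes the stages did not overlap in either region. Igf2bp3, named after its value was seen, fell 1.34-fold (log2 −0.42 ± 0.11, adjusted p = 0.041) and lost its call in 6 of 8 array omissions (adjusted p up to 0.11, without head E9.5 replicate 1). Hmga2, another let-7 target, also named after its value was seen, stayed between 8908 and 10798 on the 8 arrays (log2 −0.04 ± 0.07, adjusted p = 0.742).

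Markers of epithelium moved with these falls. The summed signal of 18 tested epithelial markers (21 listed) was 11029.6 to 12645 in head and 5617 to 6407 in trunk at E9.5, against 3386 to 3394 in head and 1771 to 2538 in trunk at E11.5, and none was listed at 0. Their part in the falls of other genes was not tested. Of the 18, 13 fell in both regions and none rose, with a list median of log2 −1.56. Krt8, a keratin of simple epithelia, was at 1188 and 1167 in head and 642 and 355 in trunk at E9.5, against 116 and 88.03 in head and 87.2 and 93.3 in trunk at E11.5. It fell by at least 6.74-fold (log2 −2.97 ± 0.27, adjusted p = 0.000365), and its partner Krt18 by at least 3.89-fold (log2 −2.54 ± 0.26, adjusted p = 0.000574). Epcam, an epithelial adhesion molecule, was above the median on every array, at 1167 and 1247 in head and 318 and 301 in trunk at E9.5, against 244 and 284 in head and 178 and 155 in trunk at E11.5. It fell 2.92-fold (log2 −1.55 ± 0.25, adjusted p = 0.00416), more in head than in trunk (−2.20 against −0.90, limma interaction, adjusted p = 0.0474, and 0.0823 without the E10.5 arrays of low Xist signal). Cdh1, the epithelial cadherin, fell by at least 2.595-fold (log2 −1.50 ± 0.24, adjusted p = 0.00442), and Dsp, the plaque protein of desmosomes, fell 4.65-fold (log2 −2.22 ± 0.20, adjusted p = 0.000365), although another of its probe sets had the opposite sign. Esrp1, a splicing regulator of epithelial cells, fell by at least 3.398-fold (log2 −1.87 ± 0.32, adjusted p = 0.0057) and Cldn7, a tight junction protein, by at least 2.52-fold (log2 −1.67 ± 0.24, adjusted p = 0.00278). Epcam and Cdh1 were named after their values were seen. With signals raised to the array median before the test, 8 of the 18 fell.

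**Figure D4:**
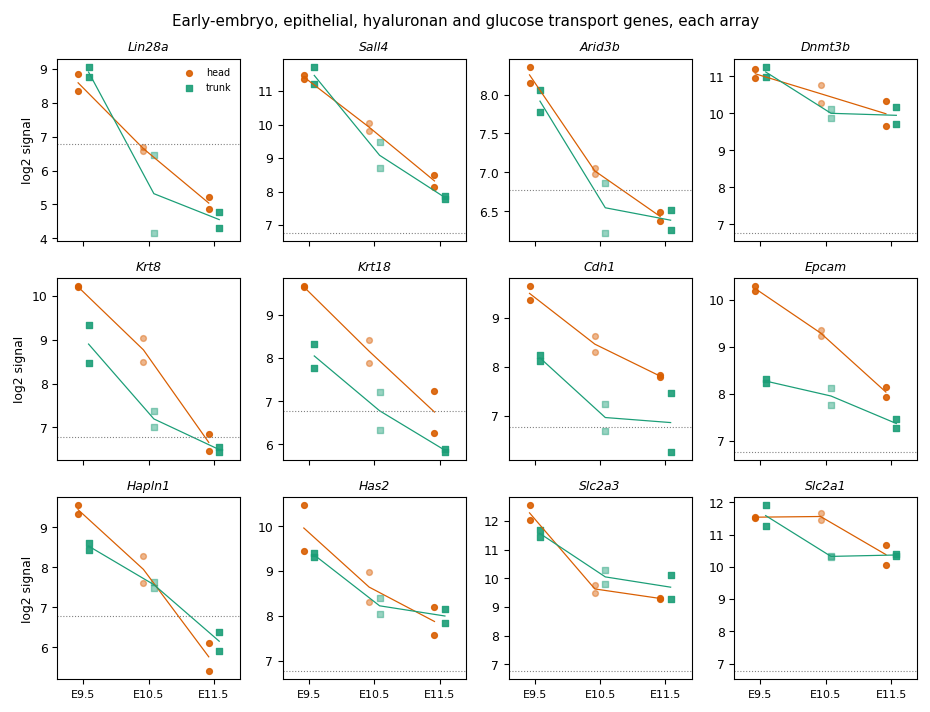
Log2 signal of 12 falling genes on each array, by stage, for head (orange circles) and trunk (green squares), with lines through the 2-array means; the E10.5 arrays, paler, are outside the test, and the dotted line marks the array median. Lin28a, Krt8 and Krt18 end below or near the median, whereas Sall4, Dnmt3b, Slc2a3 and Slc2a1 fall while staying above it.

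Of 10 tested genes of the segmentation clock and presomitic mesoderm (24 listed), 2 fell and none rose: Nkx1-2, a homeobox gene of the tail bud, and Tbx18, a T-box factor of the rostral somite (log2 −2.38 ± 0.48 and −1.27 ± 0.29, adjusted p = 0.0121 and 0.0214). Nkx1-2 was above the median only in trunk at E9.5, at 329 and 292, and Tbx18 lay close to it even at E9.5. With signals raised to the median before the test, neither was called (adjusted p = 0.135 and 0.349). Single omissions ended the calls of Nkx1-2 (without trunk E9.5 replicate 1 or trunk E9.5 replicate 2, adjusted p up to 0.0541) and Tbx18 (4 of 8 omissions, up to 0.0707 without trunk E9.5 replicate 2). Hoxb1, a Hox gene of the earliest collinear step, was at 54.1 and 77.6 in head and 295 and 273 in trunk at E9.5, against 17.3 and 12.9 in head and 42.7 and 53.2 in trunk at E11.5. It was the only 1 of 8 tested Hox genes of groups 1 to 4 (12 listed) that fell in both regions (log2 −2.35 ± 0.32, adjusted p = 0.0021), its head signals lying below the median throughout, and it was not called with signals raised to that median (adjusted p = 0.136). None of 10 tested genes of groups 5 to 13 (27 listed) was called by limma after adjustment, and 1 had an unadjusted p under 0.05, against 26.1% of all genes. Their list median was log2 0.68. Their summed signal in head was 164 to 417 at E9.5 and 346 to 644 at E11.5, low for 10 genes. In trunk the sum was 6823 to 10844 at E9.5 and 13316 to 13610 at E11.5. A change shared with head could therefore hardly be measured for these genes.

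Of 26 tested D cyclins, CDK inhibitors and genes of cell cycle exit (32 listed), 4 rose, 3 fell and 19 were not called, with a list median of log2 0.28. Cdkn1c (p57), a cyclin-dependent kinase inhibitor of differentiating myoblasts and an imprinted gene, was at 3454 and 4322 in head and 2397 and 3704 in trunk at E9.5, against 9307 and 10178 in head and 11528 and 10082 in trunk at E11.5. It rose 3.02-fold (log2 1.59 ± 0.16, adjusted p = 0.000476), every E11.5 array above every E9.5 array. Cdkn1a (p21), named after its value was seen, was at 478 and 678 in head and 177 and 531 in trunk at E9.5, against 2073 and 1485 in head and 1349 and 1225 in trunk at E11.5. Cdkn1a rose 3.59-fold (log2 1.85 ± 0.31, adjusted p = 0.00515). Rb1, the retinoblastoma protein that holds E2F factors, was at 874 and 819.6 in head and 874 and 917 in trunk at E9.5, against 1699 and 1923 in head and 1389 and 1447 in trunk at E11.5. Rb1 rose 1.84-fold (log2 0.88 ± 0.14, adjusted p = 0.00367). Gas2, a growth arrest protein, rose 2.45-fold (log2 1.29 ± 0.21, adjusted p = 0.00427). Among the falling members were E2f3 (log2 −1.14 ± 0.24, adjusted p = 0.0157) and E2f5 (log2 −0.54 ± 0.12, adjusted p = 0.022), members of the E2F family that governs S phase genes. Single omissions ended the calls of E2f3 (without trunk E9.5 replicate 1, adjusted p up to 0.0605) and E2f5 (without any of the 4 trunk arrays, up to 0.0758).

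Of 44 tested DNA replication genes (48 listed), 3 fell and 1 rose, with a list median of log2 −0.21. Of the 44, 25 were lower at E11.5 in both regions and 13 had an unadjusted p under 0.05, against 33.0% and 26.1% of all genes. Mcm10 and Mcm3, parts of the replication fork, fell by small steps (log2 −0.53 ± 0.13 and −0.51 ± 0.13, adjusted p = 0.0277 and 0.0379), as did Dbf4, the activator of the Cdc7 kinase (log2 −0.51 ± 0.14, adjusted p = 0.0454). Tyms, thymidylate synthase, rose as fitted (log2 1.27 ± 0.33, adjusted p = 0.0379) from signals under the median, and was not called with signals raised to it (adjusted p = 0.305). Of 44 tested mitosis genes (48 listed), 3 fell and none rose, with a list median of log2 −0.24. Of these, 32 were lower at E11.5 in both regions and 20 had an unadjusted p under 0.05. Mad2l1, a spindle checkpoint protein, was at 3647 and 3986 in head and 4209 and 3828 in trunk at E9.5, against 2954 and 2176 in head and 2598 and 2226 in trunk at E11.5. Mad2l1 fell 1.58-fold (log2 −0.66 ± 0.12, adjusted p = 0.00737). Cdc20, the activator of the anaphase-promoting complex, fell 1.25-fold (log2 −0.32 ± 0.07, adjusted p = 0.0215) and Kif2c, a kinesin of the centromere, 1.303-fold (log2 −0.38 ± 0.10, adjusted p = 0.0333). For Mcm3 and Kif2c another probe set had the opposite sign, and with probe sets that may match several transcripts left out the log2 change of Kif2c was 0.0231 and not called. Plk1, a mitotic kinase, was called (log2 −0.87 ± 0.22, adjusted p = 0.0344) but its stages overlapped in head. Apart from Mad2l1, these calls depended on single arrays: omissions ended those of Mcm10 (5 of 8 omissions, up to 0.0943 without trunk E11.5 replicate 2), Mcm3 (7 of 8 omissions, up to 0.121 without trunk E11.5 replicate 2), Dbf4 (7 of 8 omissions, up to 0.137 without trunk E9.5 replicate 1), Tyms (7 of 8 omissions, up to 0.107 without head E11.5 replicate 1), Cdc20 (4 of 8 omissions, up to 0.07 without trunk E9.5 replicate 1), Kif2c (7 of 8 omissions, up to 0.0982 without trunk E11.5 replicate 1) and Plk1 (6 of 8 omissions, up to 0.109 without trunk E9.5 replicate 1).

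Of 27 tested glycolysis and hypoxia genes (38 listed), 8 fell and 1 rose in both regions, with a list median of log2 −0.42. The median was −0.08 in head and −0.60 in trunk, and 17 of the 27 were not called. Slc2a3, a high-affinity glucose transporter, was at 5961 and 4172 in head and 3308 and 2767 in trunk at E9.5, against 642 and 618 in head and 1101 and 622 in trunk at E11.5. It fell 5.38-fold (log2 −2.43 ± 0.26, adjusted p = 0.00066). The widespread transporter Slc2a1 was at 2939.8 and 3002 in head and 3819.5 and 2471 in trunk at E9.5, against 1647 and 1075 in head and 1298 and 1339.5 in trunk at E11.5. Slc2a1 fell 2.28-fold (log2 −1.19 ± 0.17, adjusted p = 0.00257). Ldha, which makes lactate from pyruvate, was at 3896 and 4983 in head and 5394 and 5038 in trunk at E9.5, against 2531 and 2699 in head and 2802 and 2367 in trunk at E11.5. Ldha fell 1.85-fold (log2 −0.89 ± 0.11, adjusted p = 0.00157). For these 3 genes every E11.5 array lay below every E9.5 array. Pfkl, a phosphofructokinase, fell 2.19-fold (log2 −1.13 ± 0.19, adjusted p = 0.00479), Pdk1, the kinase that keeps pyruvate out of the mitochondrion, 2.44-fold (log2 −1.28 ± 0.26, adjusted p = 0.0119), and Pgam1, a mutase of lower glycolysis, 1.47-fold (log2 −0.56 ± 0.10, adjusted p = 0.0081). Ldhb, the other lactate dehydrogenase subunit, named after its value was seen, had a log2 change of 1.47 ± 0.38 (adjusted p = 0.0367), but its stages overlapped in head (0.41 in head and 2.53 in trunk, limma interaction, adjusted p = 0.00813, and 0.0403 without the E10.5 arrays of low Xist signal). Omissions ended the call of Ldhb (5 of 8 omissions, up to 0.115 without trunk E11.5 replicate 2). With probe sets that may match several transcripts left out, 5 members fell in place of 8.

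For the respiratory chain no change was detected: none of 48 tested mitochondrial genes (53 listed) was called by limma after adjustment. Of the 48, 5 had an unadjusted p under 0.05, against 26.1% of all genes, and the list median was log2 0.06. Of 39 tested genes of ribosome biogenesis (43 listed), 1 fell and none rose, with medians of 0.01 in head and −0.78 in trunk. The gene that fell was Nop10, a small nucleolar protein (log2 −0.57 ± 0.16, adjusted p = 0.0447), and omissions ended the call of Nop10 (6 of 8 omissions, up to 0.129 without trunk E11.5 replicate 2). With probe sets that may match several transcripts left out, Nop10 had a log2 change of −0.22 (adjusted p = 0.553).

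Of 48 tested matrix and collagen-processing genes (61 listed), 10 rose, 3 fell and 35 were not called, with a list median of log2 0.43. For 10 of the 48 the head and trunk changes differed (limma interaction, 1.48% of all genes), and for 9 without the E10.5 arrays of low Xist signal (0.816% of all genes). Ogn (osteoglycin), a small leucine-rich proteoglycan, was at 13.5 and 17.2 in head and 8.07 and 4.78 in trunk at E9.5, against 461 and 471 in head and 379 and 538 in trunk at E11.5. It rose by at least 4.18-fold (log2 5.56 ± 0.37, adjusted p = 6.00e-05), from far under the median on all E9.5 arrays. Lox, which crosslinks collagen and elastin, was at 149 and 111 in head and 53.7 and 57.5 in trunk at E9.5, against 471 and 559.5 in head and 491 and 263 in trunk at E11.5. Lox rose by at least 3.62-fold (log2 2.34 ± 0.25, adjusted p = 0.000655). Fbln5, an elastic fibre protein, rose by at least 1.88-fold (log2 1.63 ± 0.24, adjusted p = 0.00282) and Timp2, an inhibitor of matrix proteases, 2.19-fold (log2 1.13 ± 0.17, adjusted p = 0.00282). In the other direction, Hapln1, the link protein that joins hyaluronan to proteoglycans, was at 749 and 647 in head and 394 and 348 in trunk at E9.5, against 69.2 and 42.6 in head and 83.7 and 60.4 in trunk at E11.5. It fell by at least 4.63-fold (log2 −3.03 ± 0.29, adjusted p = 0.000446). Has2, the hyaluronan synthase, was at 1413 and 704 in head and 673 and 640.5 in trunk at E9.5, against 189 and 292 in head and 229 and 286 in trunk at E11.5. Has2 fell 3.302-fold (log2 −1.72 ± 0.26, adjusted p = 0.00307). For Hapln1 and Has2 every E11.5 array lay below every E9.5 array.

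Of 19 tested collagens (28 listed), 7 rose and 2 fell, with a list median of log2 0.77. The 3 chains of collagen VI, a microfibril around muscle fibres, all rose. Col6a3 was at 134 and 114 in head and 103 and 95.9 in trunk at E9.5, against 560.2 and 474 in head and 1093 and 840.1 in trunk at E11.5. Col6a3 rose by at least 6.04-fold (log2 2.66 ± 0.25, adjusted p = 0.00039). Col6a2 rose by at least 4.27-fold (log2 2.10 ± 0.27, adjusted p = 0.00164) and Col6a1 by at least 1.92-fold (log2 1.74 ± 0.40, adjusted p = 0.0215). Col1a2, a chain of fibrillar collagen I, was at 1757 and 1951 in head and 2834 and 2715 in trunk at E9.5, against 2942 and 4465 in head and 6999.8 and 6474 in trunk at E11.5. Col1a2 rose 2.18-fold (log2 1.12 ± 0.14, adjusted p = 0.00126), and Col2a1, the cartilage collagen, rose 2.23-fold (log2 1.16 ± 0.22, adjusted p = 0.00841). Col13a1, a transmembrane collagen, fell 1.99-fold (log2 −0.99 ± 0.23, adjusted p = 0.0215). Without any of the 4 trunk arrays, taken in turn, 4 collagens rose in place of 7. In each of the 8 omissions 0 or 1 fell in place of 2, with 0 without trunk E9.5 replicate 2 or trunk E11.5 replicate 2. With probe sets that may match several transcripts left out, 3 rose. Omissions ended the calls of Col6a1 (5 of 8 omissions, up to 0.0774 without trunk E11.5 replicate 2) and Col13a1 (without any of the 4 trunk arrays, up to 0.0634).

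In the basement membrane, a pair of laminin chains moved in opposite directions. Lama2, the alpha chain of muscle laminin, was at 150.2 and 221 in head and 36.2 and 26.2 in trunk at E9.5, against 652 and 477 in head and 399.6 and 362 in trunk at E11.5. Lama2 rose by at least 3.26-fold (log2 2.62 ± 0.38, adjusted p = 0.00261), with a change of 1.61 in head and 3.63 in trunk (limma interaction, adjusted p = 0.0484, and 0.0685 without the E10.5 arrays of low Xist signal). Both trunk arrays of E9.5 lay under the median, and with signals raised to it the changes were 1.61 in head and 1.80 in trunk and their difference was not called (adjusted p = 0.931). Lama1, the alpha chain of early embryonic laminin, was at 456 and 389 in head and 432 and 689.8 in trunk at E9.5, against 110.3 and 173 in head and 299.9 and 210.2 in trunk at E11.5. Lama1 fell 2.58-fold (log2 −1.36 ± 0.23, adjusted p = 0.00537). Neither gene overlapped between the stages within a region. Itga6, a laminin receptor subunit, fell 2.55-fold (log2 −1.35 ± 0.29, adjusted p = 0.0163) and Dag1, dystroglycan, 1.39-fold (log2 −0.48 ± 0.12, adjusted p = 0.0299). In all, 1 of 20 tested genes (31 listed) rose and 3 fell. Omissions ended the calls of Itga6 (without trunk E9.5 replicate 1 or trunk E9.5 replicate 2, adjusted p up to 0.0551) and Dag1 (7 of 8 omissions, up to 0.0908 without trunk E9.5 replicate 2).

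Several matrix genes met the rule for a rise in both regions, but with small head changes and by far the larger step in trunk. Tnc (tenascin C), Dcn (decorin) and Postn (periostin), glycoproteins of connective tissue named after their values were seen, changed by 0.46 in head and 4.54 in trunk, 0.60 in head and 3.86 in trunk and 0.46 in head and 3.44 in trunk (limma interaction, adjusted p = 0.00496, 0.0211 and 0.00125, and 0.0131, 0.0091 and 0.00383 without the E10.5 arrays of low Xist signal). Once signals were raised to the median, the changes were 0.14 in head and 2.08 in trunk, 0.38 in head and 2.96 in trunk and 0.46 in head and 3.44 in trunk, and the difference of Dcn was not called (adjusted p = 0.0515). Dcn was at 80.6 and 131 in head and 65.9 and 52.04 in trunk at E9.5, against 161 and 150.3 in head and 828 and 875 in trunk at E11.5. In head its E11.5 arrays lay just above its E9.5 arrays, and in trunk far above them. Every E9.5 array of Tnc lay under the median in both regions, so its head change has no measured base. The shared calls (adjusted p = 0.0488, 0.0302 and 0.0331) did not hold in each omission: they ended for Tnc (without any of the 4 trunk arrays, up to 0.144), Dcn (5 of 8 omissions, up to 0.1 without trunk E11.5 replicate 2) and Postn (without any of the 4 trunk arrays, up to 0.104).

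Transcription factors of connective tissue included the nuclear factor I family, which in muscle is known for the switch from embryonic to fetal programmes. Nfib was at 108 and 205 in head and 64.3 and 60.3 in trunk at E9.5, against 601 and 654 in head and 1123 and 1394 in trunk at E11.5. Nfib rose by at least 6.91-fold (log2 3.20 ± 0.41, adjusted p = 0.00153), and Nfia was at 82.9 and 53.4 in head and 71.1 and 41.1 in trunk at E9.5, against 194 and 209 in head and 374 and 341 in trunk at E11.5. Nfia rose by at least 2.44-fold (log2 2.16 ± 0.30, adjusted p = 0.00221). Nfix, far under the median on all E9.5 arrays, was at 4.31 and 3.21 in head and 5.25 and 4.32 in trunk at E9.5, against 102 and 74.03 in head and 119 and 163 in trunk at E11.5. It had a log2 change of 4.71 ± 0.70 (adjusted p = 0.00307) but reached the median in trunk alone, and with signals raised to that median it was not called (adjusted p = 0.413). Prrx1, a homeobox factor of limb and cranial mesenchyme, rose 3.67-fold (log2 1.88 ± 0.31, adjusted p = 0.00507), while its paralogue Prrx2 fell 2.17-fold (log2 −1.12 ± 0.17, adjusted p = 0.00328). Prrx2 was at 985 and 997 in head and 333 and 245 in trunk at E9.5, against 412 and 355 in head and 162 and 152 in trunk at E11.5, higher in head than in trunk on every array of a stage, and did not overlap between the stages in either region. Zeb1, a zinc finger repressor of epithelial genes, rose 1.57-fold (log2 0.65 ± 0.10, adjusted p = 0.00348). Of 30 tested fibroblast and tendon regulators (41 listed), 6 rose and 1 fell, with a list median of log2 0.26. Runx1 rose by at least 1.86-fold as fitted, but another of its probe sets had the opposite sign and the mean of its probe sets was not called (adjusted p = 0.07).

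The zinc finger factors Bcl11b and Bcl11a, known from lymphocytes and neurons, were among the 15 largest shared rises. Bcl11b was at 38.03 and 54.3 in head and 7.92 and 3.03 in trunk at E9.5, against 639 and 660.0 in head and 729.7 and 659.8 in trunk at E11.5. It rose by at least 6.12-fold (log2 5.49 ± 0.61, adjusted p = 0.000757). All E9.5 arrays lay below the median, and the E11.5 arrays of both regions lay close together. Bcl11a was at 87.6 and 143 in head and 43.6 and 75.8 in trunk at E9.5, against 1133 and 609 in head and 767 and 876 in trunk at E11.5. Bcl11a rose by at least 7.04-fold (log2 3.36 ± 0.30, adjusted p = 0.000365). Nrk, a kinase of the Ste20 family known in embryonic skeletal muscle, was at 529 and 490.2 in head and 237 and 197 in trunk at E9.5, against 3738 and 2877 in head and 2797 and 2510.5 in trunk at E11.5. It rose 8.89-fold (log2 3.15 ± 0.20, adjusted p = 6.00e-05), with all arrays above the median. Ptpro, a receptor tyrosine phosphatase, was at 46.6 and 86.4 in head and 37.6 and 34.8 in trunk at E9.5, against 365 and 962 in head and 191 and 287 in trunk at E11.5. Ptpro rose by at least 3.397-fold (log2 2.96 ± 0.34, adjusted p = 0.000907).

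Other genes among the 15 largest shared falls belong to no list here. Pawr, a pro-apoptotic leucine zipper protein, was at 1948 and 1615 in head and 2075 and 1305 in trunk at E9.5, against 319 and 323 in head and 417 and 652 in trunk at E11.5. Pawr fell 4.18-fold (log2 −2.06 ± 0.23, adjusted p = 0.000857). Zbtb16, a zinc finger repressor of limb and axial patterning, fell by at least 1.69-fold (log2 −2.45 ± 0.31, adjusted p = 0.0015), and Mogat2, an acyltransferase of lipid synthesis, by at least 2.99-fold (log2 −2.08 ± 0.23, adjusted p = 0.000757). Vnn1, a pantetheinase, fell by at least 4.29-fold (log2 −2.15 ± 0.27, adjusted p = 0.00149). Every E11.5 array lay below every E9.5 array for each of these genes and for Igdcc3, an immunoglobulin superfamily member (log2 −2.92 ± 0.43), which was not called with signals raised to the median (adjusted p = 0.139).

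Of 26 tested imprinted genes (33 listed), 7 rose in both regions and none fell, with a list median of log2 0.14. Beside Cdkn1c, Igf2, the fetal growth factor, was at 3855 and 3763 in head and 2798 and 3049 in trunk at E9.5, against 6647 and 4934 in head and 7002 and 7449 in trunk at E11.5. Igf2 rose 1.93-fold (log2 0.95 ± 0.15, adjusted p = 0.00424). Plagl1, a zinc finger factor that controls other imprinted genes, was at 6476 and 8171 in head and 3697 and 6098 in trunk at E9.5, against 11282 and 10985 in head and 11529 and 12252 in trunk at E11.5. Plagl1 rose 1.96-fold (log2 0.97 ± 0.18, adjusted p = 0.00775). For both, every E11.5 array lay above every E9.5 array. Meg3, a maternally expressed non-coding RNA, rose 1.54-fold (log2 0.63 ± 0.09, adjusted p = 0.00221), Ndn, necdin, 1.34-fold (log2 0.42 ± 0.08, adjusted p = 0.0113), and Asb4, a ubiquitin ligase subunit, 2.01-fold (log2 1.01 ± 0.23, adjusted p = 0.0229). The calls of Meg3 and Ndn were lost with probe sets that may match several transcripts left out (adjusted p = 0.368 and 0.0761), and omissions ended the call of Asb4 (3 of 8 omissions, up to 0.0782 without trunk E11.5 replicate 2). Of 19 tested genes of the insulin-like and platelet-derived growth factor axis (24 listed), 6 rose and none fell, with a list median of log2 0.40. The median was 0.09 in head and 0.73 in trunk. Igfbp3, a binding protein of the insulin-like factors, was at 385 and 373 in head and 121 and 131 in trunk at E9.5, against 902 and 983 in head and 662 and 532 in trunk at E11.5. Igfbp3 rose 3.42-fold (log2 1.77 ± 0.20, adjusted p = 0.000857). Pdgfc, a ligand, rose 1.87-fold (log2 0.90 ± 0.13, adjusted p = 0.00305) and Irs1, an adaptor below the insulin-like receptor, 1.56-fold (log2 0.64 ± 0.11, adjusted p = 0.00638). Pdgfa and Htra1 rose as fitted (adjusted p = 0.0354 and 0.0455), but neither was called with signals raised to the median (adjusted p = 0.67 for Htra1). Array omissions ended both calls as well, 6 of 8 for Pdgfa and 7 of 8 for Htra1. Both calls also ended with no filter on dim probe sets, that of Pdgfa with no intensity trend and that of Htra1 with the mean of its probe sets.

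Signalling pathways changed by few members each. In the Notch pathway, which keeps progenitors from differentiating, 3 of 23 tested genes (26 listed) rose and none fell, with a list median of log2 0.09. Dner, a transmembrane ligand better known from neurons, was at 104 and 149 in head and 74.8 and 128 in trunk at E9.5, against 623 and 1021 in head and 694 and 1095 in trunk at E11.5. Dner rose by at least 6.77-fold (log2 2.92 ± 0.26, adjusted p = 0.000365). Hes6, a member of the Hes family that opposes Hes1, rose by at least 1.99-fold (log2 1.01 ± 0.23, adjusted p = 0.022) and Dtx1, a ubiquitin ligase of Notch, by at least 1.66-fold (log2 0.84 ± 0.20, adjusted p = 0.0268). Notch3, named after its value was seen, was called (log2 0.69 ± 0.18, adjusted p = 0.0374) but its stages overlapped in head. Hes5, a target of Notch, also named after its value was seen, was not called over both regions (log2 −1.87 ± 0.58, adjusted p = 0.0677), with −3.37 in head and −0.38 in trunk. Omissions ended the calls of Hes6 (3 of 8 omissions, up to 0.0695 without trunk E11.5 replicate 2), Dtx1 (6 of 8 omissions, up to 0.0897 without trunk E11.5 replicate 1) and Notch3 (6 of 8 omissions, up to 0.119 without trunk E11.5 replicate 2).

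In the transforming growth factor beta and bone morphogenetic protein pathways, 5 of 30 tested genes (48 listed) rose and 3 fell, with a list median of log2 0.22. The ligand Tgfb2 was at 789.9 and 631 in head and 486 and 535 in trunk at E9.5, against 2424 and 2395 in head and 3356 and 2862 in trunk at E11.5. Tgfb2 rose 4.55-fold (log2 2.19 ± 0.18, adjusted p = 0.000365), every E11.5 array above every E9.5 array. Ltbp3, which stores the latent ligand in matrix, rose 3.001-fold (log2 1.59 ± 0.26, adjusted p = 0.00441), as did the receptors Tgfbr2, 1.86-fold (log2 0.90 ± 0.20, adjusted p = 0.0173), and Bmpr2, 1.704-fold (log2 0.77 ± 0.16, adjusted p = 0.0157). Acvr2b, a receptor of activin and myostatin, fell 1.85-fold (log2 −0.89 ± 0.15, adjusted p = 0.00551) and Bambi, a decoy receptor, by at least 1.86-fold (log2 −1.08 ± 0.23, adjusted p = 0.0159). Omissions ended the calls of Tgfbr2 (without any of the 4 trunk arrays, up to 0.0545), Bmpr2 (without trunk E11.5 replicate 1, adjusted p up to 0.057) and Bambi (without trunk E11.5 replicate 2, adjusted p up to 0.0519).

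In the Wnt pathway, 5 of 32 tested genes (54 listed) rose and 2 fell, with a list median of log2 0.05. The secreted antagonist Dkk2 was at 79.3 and 123 in head and 67.6 and 142 in trunk at E9.5, against 226 and 236 in head and 894 and 725 in trunk at E11.5. Dkk2 rose by at least 3.59-fold (log2 2.13 ± 0.38, adjusted p = 0.00679). Rspo2, an agonist, and Lgr5, a receptor for it, rose as well (log2 1.93 ± 0.51 and 1.08 ± 0.25, adjusted p = 0.0401 and 0.0212), with a change of Rspo2 of 0.49 in head and 3.37 in trunk (limma interaction, adjusted p = 0.0363, and 0.0373 without the E10.5 arrays of low Xist signal). The changes of Rspo2 with signals raised to the median were 0.49 in head and 1.95 in trunk, and their difference was not called (adjusted p = 0.264). Of the Frizzled receptors, Fzd8 rose 1.8-fold (log2 0.85 ± 0.19, adjusted p = 0.0215) and Fzd7 fell 1.62-fold (log2 −0.70 ± 0.16, adjusted p = 0.0215). Omissions ended the calls of Rspo2 (6 of 8 omissions, up to 0.118 without trunk E11.5 replicate 2), Lgr5 (without any of the 4 trunk arrays, up to 0.0771), Fzd8 (4 of 8 omissions, up to 0.0782 without trunk E11.5 replicate 2) and Fzd7 (4 of 8 omissions, up to 0.0717 without trunk E9.5 replicate 1).

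Of 11 tested fibroblast growth factor pathway genes (34 listed), 2 rose and 1 fell. Fgfr4, the receptor of differentiating myoblasts, was at 92.3 and 28.9 in head and 132 and 132 in trunk at E9.5, against 613 and 728 in head and 337 and 337 in trunk at E11.5. Fgfr4 rose by at least 3.95-fold (log2 2.53 ± 0.48, adjusted p = 0.00912), with 3.69 in head and 1.36 in trunk. Dusp6, a phosphatase induced by the pathway, fell 1.85-fold (log2 −0.89 ± 0.19, adjusted p = 0.0149), and the ligand Fgf9 had a log2 change of 1.83 ± 0.38 with E9.5 signals all under the median (adjusted p = 0.288 with signals raised to it). Omissions ended the calls of Dusp6 (without trunk E9.5 replicate 1, adjusted p up to 0.0524) and Fgf9 (without trunk E11.5 replicate 1, adjusted p up to 0.0502). In the Hedgehog pathway 1 of 11 tested genes (18 listed) fell, Ptch1, the receptor and target, 1.59-fold (log2 −0.67 ± 0.13, adjusted p = 0.00941). Of 14 tested retinoic acid genes (23 listed), 2 rose and 2 fell, the latter Crabp2 and Rbp4, a retinol carrier (log2 −1.19 ± 0.23, adjusted p = 0.0104). Rbp4 was not called with signals raised to the median (adjusted p = 0.0677). The receptors Rxra and Rxrg rose as fitted (log2 0.59 ± 0.14 and 2.15 ± 0.54, adjusted p = 0.0288 and 0.0306), and omissions ended the calls of Rxra (7 of 8 omissions, up to 0.0916 without trunk E11.5 replicate 1) and Rxrg (3 of 8 omissions, up to 0.102 without trunk E11.5 replicate 2). Rxrg was also not called with signals raised to the median (adjusted p = 0.165).

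Among 30 tested chromatin genes (42 listed), 2 rose and 3 fell, against 6.55% and 3.64% of all genes, so the rising count lay near that share. Smarcd3 (Baf60c), the subunit of the SWI/SNF remodeller that works with Myod1, was at 190.3 and 133 in head and 45.1 and 129 in trunk at E9.5, against 686 and 672 in head and 459.7 and 524 in trunk at E11.5. It rose by at least 4.21-fold (log2 2.39 ± 0.30, adjusted p = 0.0015). Its paralogue Smarcd1 (Baf60a) was at 387 and 325 in head and 294 and 409 in trunk at E9.5, against 154 and 187 in head and 148 and 193 in trunk at E11.5. Smarcd1 fell 2.07-fold (log2 −1.05 ± 0.18, adjusted p = 0.00547). Hmgb2, a chromatin protein of dividing cells, fell by a small step (log2 −0.45 ± 0.12, adjusted p = 0.0405), and omissions ended the call of Hmgb2 (6 of 8 omissions, up to 0.124 without trunk E11.5 replicate 2). Among 27 tested splicing regulators (34 listed), 2 rose and 1, Esrp1, fell, both counts near the shares over all genes. Celf2 was at 3228 and 2477 in head and 1171 and 1612 in trunk at E9.5, against 6858 and 6831 in head and 4136 and 4426 in trunk at E11.5. Celf2 rose 2.75-fold (log2 1.46 ± 0.14, adjusted p = 0.000405), and Rbfox1, a splicing factor of muscle and neurons, rose by at least 2.96-fold (log2 2.07 ± 0.31, adjusted p = 0.00324).

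Markers of neurons rose as well, more in trunk than in head. Of 18 tested (22 listed), 8 rose and 1, the proneural factor Neurog2, fell, with a list median of log2 1.32. The median was 0.83 in head and 2.04 in trunk. Neurod1, a member of the list, fell in head and rose in trunk (log2 −1.98 and 1.36). The fall of Neurog2 was not called without either head E9.5 array or without trunk E9.5 replicate 2. The summed signal of the 18 markers was 7196 to 12902 in head and 1461 to 2072 in trunk at E9.5, against 12572 to 20832 in head and 8396 to 11348 in trunk at E11.5, and none was listed at 0. The sums thus overlapped between the stages in head and not in trunk. Stmn3, a tubulin regulator of neurons, was at 341 and 1396 in head and 93.6 and 111 in trunk at E9.5, against 2682 and 4569 in head and 1419 and 2173 in trunk at E11.5. Stmn3 rose by at least 9.002-fold (log2 3.22 ± 0.47, adjusted p = 0.00276). Dcx, a microtubule protein of migrating neurons, was at 775 and 1444 in head and 51.1 and 85.02 in trunk at E9.5, against 1806 and 2934 in head and 1552 and 2025 in trunk at E11.5. It rose by at least 5.94-fold (log2 2.94 ± 0.63, adjusted p = 0.016), with 1.12 in head and 4.75 in trunk (limma interaction, adjusted p = 0.00254, and 0.0154 without the E10.5 arrays of low Xist signal), and lost its call without trunk E9.5 replicate 2 (adjusted p = 0.0509). Snap25 rose by at least 2.897-fold (log2 2.03 ± 0.36, adjusted p = 0.00642) and the neurofilament genes Nefm and Ina by at least 5.54-fold and at least 4.49-fold. Tubb3, a neuronal tubulin named after its value was seen, was not called (log2 1.54 ± 0.60, adjusted p = 0.135), with 0.22 in head and 2.86 in trunk. In trunk at E9.5 both arrays of Dcx lay under the median, and in head they did not. The part of these markers in the rises of Bcl11a, Bcl11b, Dner, Celf2 and Rbfox1, which neurons also express, was not tested.

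Of 9 tested neural progenitor markers (14 listed), 2 rose and 2 fell: Nes, an intermediate filament also made by myoblasts, and Vim, a mesenchymal filament, rose 2.07-fold (log2 1.05 ± 0.20, adjusted p = 0.00838) and 1.72-fold (log2 0.78 ± 0.13, adjusted p = 0.00547), and Sox2 fell 3.05-fold (log2 −1.61 ± 0.28, adjusted p = 0.00647), as did Pax6 (log2 −1.18 ± 0.26, adjusted p = 0.0202). The call of Vim was lost with probe sets that may match several transcripts left out (adjusted p = 0.0998), and omissions ended that of Pax6 (3 of 8 omissions, up to 0.0862 without trunk E9.5 replicate 2). Pax6 had a log2 change of −0.20 with signals raised to the median (adjusted p = 0.311). Of 7 tested macrophage markers (16 listed), 3 rose and none fell. Their summed signal was 1123 to 1407 in head and 447 to 542 in trunk at E9.5, against 1815 to 2287 in head and 872 to 1049.7 in trunk at E11.5. Laptm5, Csf1r and Adgre1 had log2 changes of 1.12 ± 0.24, 1.24 ± 0.29 and 0.92 ± 0.25 (adjusted p = 0.0163, 0.025 and 0.0425), and another probe set of Csf1r had the opposite sign. The count of 3 was 1 without head E11.5 replicate 1, 0 without trunk E9.5 replicate 2, 1 with signals raised to the median and 5 without the intensity trend. Over all omissions the calls ended for Laptm5 (without trunk E9.5 replicate 2, adjusted p up to 0.05002), Csf1r (3 of 8 omissions, up to 0.0765 without trunk E9.5 replicate 2) and Adgre1 (7 of 8 omissions, up to 0.114 without head E11.5 replicate 2).

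None of 17 tested endothelial markers (18 listed) and none of 7 tested erythroid markers (14 listed) was called by limma after adjustment. The unadjusted p was under 0.05 for 1 of the 17 endothelial and 3 of the 7 erythroid markers, against 26.1% of all genes. The list medians were log2 0.07 and −0.65. Of the 7 erythroid markers, 5 were lower at E11.5 in both regions, against 33.0% of all genes. Their median was −1.28 in head and −0.20 in trunk. As 10.4% of all genes were called, no call among 7 markers says little. The erythroid sum was 22481 to 26093 in head and 13367 to 14990.2 in trunk at E9.5, against 8677 to 19255 in head and 11864 to 17165 in trunk at E11.5. Of 24 tested immediate early and heat shock genes (26 listed), which respond to handling of cells, 1 rose, the small heat shock gene Hspb1, which muscle also expresses (log2 1.19 ± 0.29, adjusted p = 0.0271). Omissions ended the call of Hspb1 (5 of 8 omissions, up to 0.0853 without trunk E9.5 replicate 1). Of 5 tested cardiac genes (20 listed), 3 rose: Mef2c, Tnnt2, the cardiac troponin T that embryonic skeletal muscle also uses, by at least 3.13-fold (log2 2.04 ± 0.33, adjusted p = 0.00439), and Smpx, a small muscle protein (log2 2.32 ± 0.52, adjusted p = 0.0196). Smpx was under the median on some E11.5 arrays and was not called with signals raised to it (adjusted p = 0.393), and omissions ended the call of Smpx (3 of 8 omissions, up to 0.0791 without trunk E11.5 replicate 1). Of 13 tested neural crest genes (28 listed) 2 rose and 1 fell, Erbb3, Prrx1 and Prrx2, already described. Of 10 tested cartilage genes (24 listed), Col2a1 rose, and Hapln1 and Sox6 fell (Sox6 log2 −0.68 ± 0.17, adjusted p = 0.0294; omissions ended the call of Sox6 (5 of 8 omissions, up to 0.0959 without trunk E9.5 replicate 1)).

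Other choices of processing ended further calls of genes named above, beyond those given with each gene. Signals raised to the array median ended those of Adgre1, Dbf4, Dcn, Hmgb2, Hspb1, Laptm5, Ldhb, Nop10, Notch3, Plk1, Postn, Runx1 and Tnc (adjusted p up to 0.15 for Runx1). With no filter on dim probe sets they were Adgre1, Cdc20, Dbf4, Dcn, Dtx1, Foxc2, Hmgb2, Igf2bp3, Ldhb, Nop10, Plk1, Postn, Rspo2, Rxra, Sox6, Tcf4 and Tnc (up to 0.0737 for Adgre1). With no intensity trend the calls of Asb4, Cdc20, Dbf4, Dcn, Foxc2, Hmgb2, Igf2bp3, Kif2c, Ldhb, Mcm3, Ndn, Nop10, Notch3, Plk1, Postn, Rspo2, Tcf4 and Tnc ended (up to 0.135 for Cdc20). With the mean of all probe sets of a gene those of Csf1r, Dag1, Hmgb2, Kif2c, Mcm3, Nop10, Rxra and Tcf4 ended (up to 0.159 for Kif2c), and with probe sets that may match several transcripts left out those of Cdc20 and Notch3 (up to 0.15 for Cdc20). A filter of at least 4 of the 8 arrays above the median ended the calls of Foxc2 and Tnc (up to 0.0509 for Foxc2). A mean per group over all 12 arrays ended those of Hmgb2 and Pax6 (up to 0.0847 for Pax6), and quantile normalization that of Tcf4 (adjusted p = 0.0512).

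The E10.5 arrays place the shared changes in time. The measure is the change from E9.5 to E10.5 as a percentage of that from E9.5 to E11.5, a description that shares its E9.5 arrays between both terms and has no test. Over the 210 genes that rose by over 1 on the log2 scale in each region, the median was 56.3% in head (quartiles 31.8% and 79.5%) and 75.2% in trunk (58.2% and 87.0%), and the trunk value was the higher for 141 of them. Over the 87 genes that fell by as much, the medians were 54.6% and 68.3%, and trunk was higher for 61. More than 50% of the change was reached at E10.5 by 125 of the 210 rising genes in head and 180 in trunk, and by 46 and 69 of the 87 falling genes.

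With replicate 2 alone at E10.5, which leaves out the arrays of low Xist signal, the medians were 60.03% in head (quartiles 33.1% and 80.4%) and 73.5% in trunk (54.8% and 83.3%) for rising genes. They were 54.3% and 57.5% for falling genes, and trunk was higher for 129 of 210 and 46 of 87. More than 50% was then reached by 133 rising genes in head and 161 in trunk, and by 51 and 50 of the falling genes, so that the higher count of falling genes in trunk was not kept. A percentage of a change from or to a level under the median has no measured base. Of these genes 52 rising and 34 falling ones lay above the median on all 8 arrays of E9.5 and E11.5. Their medians were 57.2% in head and 69.8% in trunk for rising genes and 48.2% and 67.4% for falling genes, with trunk higher for 31 and 25. With replicate 2 alone they were 58.7% and 71.7%, and 52.5% and 59.4%, with trunk higher for 32 and 22.

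Single genes differed widely. Signals at E10.5 are given as replicate 1, of low Xist signal, and replicate 2. Ryr1 stood at 5.44 and 3.28 in head and 129 and 93.2 in trunk, so that trunk replicate 1 alone lay above the median. Actn2 was at 18.9 and 74.4 in head, under the median, and 362 and 344 in trunk, above it. Myod1 was at 319 and 216 in head and 226 and 334 in trunk, and Tnnt1 at 355 and 440.2 and 354 and 434. Every E10.5 array of both genes lay above all their E9.5 arrays and below their lowest E11.5 array of the same region. Bcl11b was at 411 and 401 in head and 433 and 457 in trunk, well above all E9.5 arrays in both. Nfix stood at 3.77 and 4.14 in head and 6.09 and 3.47 in trunk, as low as at E9.5. Among falling genes measured on every array, Slc2a1 was at 3267 and 2782 in head and 1262 and 1297 in trunk, −1.84% and 104% of its change, and 8.17% and 102% with replicate 2 alone. Its head arrays lay around their E9.5 level and its trunk arrays just under that of E11.5. Sall4 had covered 48.3% and 65.4%, and 51.9% and 54.7% with replicate 2 alone.

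**Figure D5:**
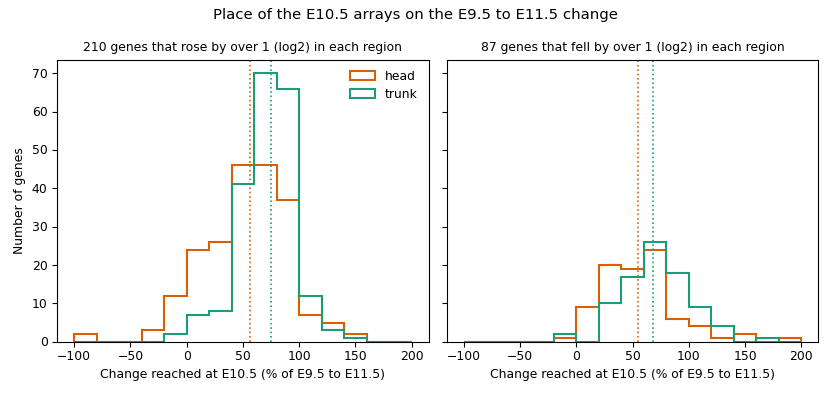
Number of genes by the share of their E9.5 to E11.5 change reached at E10.5, in percent, in head (orange) and trunk (green), for the 210 rising and 87 falling genes that moved by over 1 on the log2 scale in each region. Dotted lines mark the medians, 56.3% and 75.2% for rising genes and 54.6% and 68.3% for falling genes; values outside the axis are drawn in the outermost bins, and genes with arrays under the array median are included.

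Shared direction did not mean equal size. The head change was the larger for 145 of the 506 rising genes and 128 of the 281 falling genes. The difference between the changes passed the test for 114 of all genes (1.48%, limma interaction over all 12 arrays), among them 28 of the rising genes, 3 with the larger step in head, and 2 of the falling genes, both with the larger step in head. Without the E10.5 arrays of low Xist signal, an alternative added after the data were seen, 63 differences were called, 62 of them also called with all arrays, 18 among the rising and 0 among the falling genes. Over the 8 arrays of E9.5 and E11.5 alone there were 63 as well, 17 among the rising genes. In a further alternative added after the data were seen, signals raised to the array median, 148 were called, 86 of them among the 114; arrays raised to the median show only its spread, which can lower p. Called in both regions taken alone but in opposite directions were 11 genes: Hoxd1, Meox1 and Pcolce2 rose in head and fell in trunk, and Cyp1b1, Dach2, Ebf2, Efnb2, Epb41l4a, Lum, Neurod1 and Npnt fell in head and rose in trunk. Their number was 7 without the 2 E10.5 arrays. None of these 11 was called in the fit over both regions.

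Among the genes of opposite direction, Lum (lumican), a proteoglycan of connective tissue, was at 779 and 607 in head and 175 and 163 in trunk at E9.5, against 203 and 266 in head and 1137 and 1160.0 in trunk at E11.5. Both head arrays fell under those of E9.5 and both trunk arrays rose above theirs, by log2 −1.57 and 2.76. Meox1, a homeobox factor of the somite, was at 126 and 70.9 in head and 2155 and 2465 in trunk at E9.5, against 251 and 241 in head and 435 and 805 in trunk at E11.5, with changes of log2 1.38 in head and −1.96 in trunk. Ebf2, the early B-cell factor related to Ebf3, was at 1894 and 1451 in head and 641 and 505 in trunk at E9.5, against 636 and 764 in head and 2361 and 2335 in trunk at E11.5, and Neurod1, a factor of neuronal differentiation, at 2287 and 2822 in head and 74.2 and 120.5 in trunk at E9.5, against 502 and 828 in head and 268 and 219.9 in trunk at E11.5. For Lum and Ebf2 the order of the regions was turned round between the stages. For Meox1 and Neurod1 it was kept, with the regions closer together at E11.5.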

How the data were processed

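Probe set signals of 12 arrays, on a linear scale with intensity as unit, were deposited by the authors. Per the submitters' processing notes they come from MAS5 and Affymetrix Expression Console. No source used here says whether they were then normalized. Per the labels, RNA of sorted fluorescent cells was extracted with QIAzol and amplified before labelling. Signal percentiles were alike on all arrays (largest gap 0.0353, log2), so log2 was taken with no further normalization.

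The 22690 probe sets held 64 controls. The array annotation gave 1 gene for 20380, several genes for 691 and no gene for 1555; those with 1 gene were kept (12393 genes). Symbols matched the gene table through Entrez identifiers for 20351 probe sets, with 0 symbols changed. Testing required a signal above the array median on at least 2 of 12 arrays, which left 11739 probe sets, and a gene was its probe set of highest mean (7722 genes, 2683 with several). Differences were tested with limma 3.58.1 in R 4.3.3 on the 8 arrays, with region as an additive term and an empirical Bayes trend on intensity (residual degrees of freedom 5, prior 4.99), two-sided, at an adjusted p of 0.05. Changes within a region and their difference came from 1 mean per group over 12 arrays (degrees of freedom 6 and 5.87). In 5 simulated sets, 200 of 7722 genes were given the same change in head and trunk, with independent normal noise of the fitted spread. There the fit over both regions found 83.6% of the genes changed 2-fold and 98% of those changed 4-fold, and 5.32% of its calls were false. In the data more genes were called and head and trunk changes differed in size. These shares therefore check the code and do not give the power or the false calls of the comparison. The number of arrays limits the precision.

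Genes named are the 15 largest shared rises and falls by the smaller of the head and trunk changes, with the brighter side above the median on all 4 arrays, the 6 members of each list with the smallest p among those called, and Myf5, Myod1, Myog, Pax3, Pax7 and Tbx1. One of the 15 falls is not reported here. Genes outside this rule, the 11 of opposite direction among them, were chosen after their values were seen. The 41 lists hold 1220 entries, of which 838 were tested (6 through an older symbol). The comparison, the lists and the rule were chosen with earlier results of these data known, and the counts of list members under the alternatives the omission of E10.5 arrays, the raised signals in the test of a difference between the regions and the timing of genes measured on all 8 arrays were added after the data were seen. The alternatives were quantile normalization, median centring, treatment of low signals, filters, choice of probe set, form of the fit, the replicate number as a block and the omission of each array.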

Additional observations from a re-analysis of the deposited data

Results flagged for a closer look

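For 25 genes named here or moving in opposite directions, the head change and the trunk change from E9.5 to E11.5 differed by limma's interaction test over all 12 arrays (2 arrays a group). Values are head change minus trunk change on the log2 scale, with Benjamini-Hochberg adjusted p. Among genes that rose in both regions, the head change exceeded the trunk change for the differentiation factor Myog 2.95 (adjusted p = 0.0133). It was the smaller for the zinc finger factor Bcl11b −3.31 (adjusted p = 0.00899), the neuronal gene Dcx −3.63 (adjusted p = 0.00254), the matrix genes Dcn −3.26 (adjusted p = 0.0211), Lama2 −2.01 (adjusted p = 0.0484), Postn −2.98 (adjusted p = 0.00125) and Tnc −4.09 (adjusted p = 0.00496), the transcription factor Nfib −2.25 (adjusted p = 0.0368) and the Wnt agonist Rspo2 −2.87 (adjusted p = 0.0363). Among genes that fell, the difference was −1.29 (adjusted p = 0.0474) for Epcam, the larger step being in head.

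Genes with no shared change included Myf5 1.45 (adjusted p = 0.0307), Isl1 −2.33 (adjusted p = 0.0199), Tbx1 −1.68 (adjusted p = 0.031) and Ldhb −2.12 (adjusted p = 0.00813). The genes called in opposite directions were Hoxd1 4.02 (adjusted p = 0.00086), Meox1 3.34 (adjusted p = 0.00415) and Pcolce2 3.31 (adjusted p = 0.00116), which rose in head and fell in trunk, and Cyp1b1 −2.05 (adjusted p = 0.00418), Dach2 −2.28 (adjusted p = 0.00293), Ebf2 −3.30 (adjusted p = 0.0004), Efnb2 −1.22 (adjusted p = 0.0199), Epb41l4a −2.96 (adjusted p = 0.00175), Lum −4.33 (adjusted p = 0.0017), Neurod1 −3.34 (adjusted p = 0.0017) and Npnt −2.05 (adjusted p = 0.00418), which fell in head and rose in trunk. Lum encodes lumican, a matrix proteoglycan, Meox1 a somite homeobox factor, and Neurod1 a neuronal differentiation factor. Without the E10.5 arrays of low Xist signal (head replicate 1 and trunk replicate 1), 18 of the 25 differences were called (not those of Efnb2, Epcam, Isl1, Lama2, Myf5, Nfib and Tbx1), and over the 8 arrays of E9.5 and E11.5 alone 17, Bcl11b being lost as well (adjusted p = 0.0581). After signals were raised to the array median 17 were called (not those of Bcl11b, Dcn, Epcam, Lama2, Myog, Nfib, Rspo2 and Tbx1). The 4 E9.5 signals of Bcl11b lay under the median in both regions, and with signals raised to it the difference was −0.10 (adjusted p = 0.933), so the value given above is no difference between measured levels.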

How the results depend on the processing

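The counts of 806 called, 506 rising and 281 falling genes stayed within 1.5 times their value under quantile normalization (803, 502 and 279), median centring, added offset, filters, choice of probe set, signals raised to the array median (605, 381 and 223), no intensity trend and 1 mean per group over the 8 arrays. Since the signal percentiles of the arrays were already alike, quantile normalization and median centring could change little. With 1 mean per group over all 12 arrays 1249 genes were called, 773 of the 787 shared genes among those that still moved without overlap; the spread then excludes the gap between the regions, by construction. With each array left out in turn the counts ran from 472 to 806 called, 298 to 549 rising and 174 to 254 falling genes. Of the 787 genes, 460 were among the 472 without trunk E11.5 replicate 2. The share of calls that were higher at E11.5 lay between 60.8% and 68.5% under all alternatives (64.4% as reported), and the median over all genes between −0.02 and 0.00. Of 161 named called genes, 92 kept their call and direction under every alternative run and 69 lost the call under at least 1.

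Deviations of same-numbered arrays correlated between −0.30 and 0.15 over the groups of E9.5 and E11.5, which cannot exclude shared embryos or litters. At E10.5 the log2 signal of Xist was low on replicate 1 of both regions (7.35 in head and 6.37 in trunk). On replicate 2 it was 12.29 in head and 12.01 in trunk. Whether same-numbered head and trunk arrays share embryos is not stated in the labels, and the fits take them as independent. With a replicate block 685 genes were called, 443 rising and 225 falling, 662 of them shared with the reported genes. The sign turned for Kif2c, to 0.0231 with probe sets that may match several transcripts left out, and, among uncalled genes, for Hmga2, to 0.00888 without head E9.5 replicate 1, and for Pax3, to 0.0490 without trunk E11.5 replicate 1; over all 8 omissions these 2 ran from −0.0933 to 0.00888 and from −0.55 to 0.0490. The cause of these turns was not tested. Htra1 lost its call with the block. Among the other genes named, the block ended the calls of Adgre1, Dbf4, Foxc2, Igf2bp3, Kif2c, Ldhb, Mcm3, Plk1, Rspo2, Tcf4, Tnc and Tyms (adjusted p up to 0.0702 for Tnc). Signals below the array median limit many of the largest log2 values to bounds.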
